A study of Mus musculus with 8 samples.

Results

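The genes described here encode surface proteins through which a leukemia cell meets natural killer (NK) cells, phagocytes and T cells: Ulbp1, Pvr, Nectin2 (older name Pvrl2), Cd48, Clec2d, Cd47, Cd80, Cd86, Cd274 and Vsir. They were found by gene name in the count table, where 9 of the 10 names had a row among 12823 rows in all. Cd86 is not analysed here. All 9 rows passed the filter of at least 1 CPM (the count of a gene scaled by the total count of its library, per 1000000 counts) in at least 4 of the 8 libraries, which kept 12494 rows for testing.

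RNA was sequenced from MLL-AF9 leukemia cells, mouse bone marrow progenitors that had received the MLL-AF9 fusion together with a GFP reporter from a retrovirus. The 4 libraries of new AML held GFP+ cells of the leukemia that first arose after transplantation into sublethally irradiated recipients, and the 4 libraries of aggressive AML held cells of the leukemia after 5 serial transplantations in non-irradiated mice. Recipients of both groups were C57BL/6 mice aged 8 to 12 weeks, and GFP+ cells were sorted from bone marrow before RNA extraction. Irradiation of the recipient thus differs between the groups beside the number of passages. The labels name no drug for either group, and both carried the same fusion gene, driven from a retroviral vector rather than from its own locus. The aggressive cells are described as derived from the new cells. The study names male mice for these libraries and the labels call the replicates biological, but neither says whether each sample came from its own recipient, so p-values measure only the spread between these samples, which may be partly technical. The labels record no batch, and a batch that follows the group cannot be told apart from the group.

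An NK cell weighs signals from activating receptors against signals from inhibitory receptors. Ligands of the activating receptor NKG2D, such as the Ulbp1 product, and of the activating receptor CD226, such as the products of Pvr and Nectin2, mark stressed or transformed cells, while the Clec2d product and MHC class I molecules restrain the NK cell. CD47 restrains phagocytes in the same manner, and CD80, CD86, PD-L1 (encoded by Cd274) and VISTA (encoded by Vsir) tune T cells. The study stained ligands of these kinds on the surface of leukemia cells, among them the products of Ulbp1, H2-T23 and the Raet1 genes. It described these products as not strongly expressed on an earlier MLL-AF9 line, taken from wild-type or Rag2 knockout mice. That line is not part of the comparison made here. The study also assessed MHC class I, NK ligands and checkpoint molecules on several of its myeloid tumors. By its account, none of them explained why some leukemias resist innate or adaptive immunity. The stainings are not analysed here, and a transcript level does not give the amount of protein at the surface.

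The libraries held 7805544 to 9697777 counts each, and a single count equalled 0.103 to 0.128 CPM. Summed over 10 genes of MLL-AF9 myeloid leukemia, all of them in the table, levels were 4739 to 5443 CPM in new AML and 4361 to 5414 CPM in aggressive AML, with Mpo the most abundant of them. Within that list 3 genes rose (Kit, Mef2c and Meis1, by 0.65, 0.62 and 0.45 on the log2 scale), 3 fell (Csf1r, Itgam and Hoxa10, with log2 fold changes of -1.70, -0.61 and -0.59) and 4 were not called. Of all tested genes, 18.4% were called, 8.15% as higher and 10.2% as lower. Markers of other blood cells moved with the group only in part. Called lower were 3 of 3 tested dendritic cell, 1 of 3 macrophage, 7 of 9 neutrophil and 2 of 5 erythroid genes. The tested B cell, T cell and NK cell genes, 1 each, were not called, and 10.2% of all tested genes were called lower. In the neutrophil list Ly6g (log2 fold change 0.31) and Cxcr2 (-0.61) were not called. The summed level of the dendritic cell list (4 of 7 genes in the table) was 40.05 to 62.8 CPM in new AML and 9.76 to 15.3 CPM in aggressive AML, that of the macrophage list (4 of 8) was 64.6 to 111 against 37.8 to 57.4 CPM, that of the neutrophil list (9 of 9) was 300 to 448 against 148 to 197 CPM, that of the B cell list (3 of 6) was 36.6 to 42.2 against 30.6 to 33.7 CPM, and that of the erythroid list (6 of 6) was 18.8 to 60.7 against 6.95 to 31.1 CPM. T cell and NK cell lists had 1 of 8 genes each in the table, at 2.85 to 3.90 against 3.53 to 6.02 CPM and at 3.90 to 7.92 against 2.47 to 5.83 CPM. Reads of 4 Y-linked genes summed to 251 to 287 CPM in each new AML library and to 0 in each aggressive AML library, where a count of 0 allows up to 3 counts. The aggressive cells are described as derived from the new cells, and the cause of this difference in Y-linked reads was not tested. The study names male mice but does not say whether this covers the donors of the progenitors. A difference in the origin of the cells thus cannot be told apart from the passages in any comparison here.

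Of the 9 tested genes, 2 rose in aggressive AML (Ulbp1 and Pvr), 4 fell (Cd48, Clec2d, Cd80 and Vsir) and 3 were not called (Nectin2, Cd47 and Cd274). A call is an adjusted p under 0.05 in the edgeR quasi-likelihood test over all tested genes, and that test called 18.4% of all genes, 8.15% as higher and 10.2% as lower. The median log2 fold change of the 9 genes was -0.17, and that of all tested genes was 0.00044. The size of the change, without its sign, had a median of 0.42 on the log2 scale for the 9 genes and 0.19 for all genes. In 7 of the 9 genes no library of one group reached into the range of the other, 3 with all aggressive libraries above the new ones and 4 with all below, where 21.8% of all tested genes had such a separation (9.76% above and 12% below). Because the genes were chosen with earlier results of these data known, these shares describe the 9 genes and are not a test of them.

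**Figure D1:**
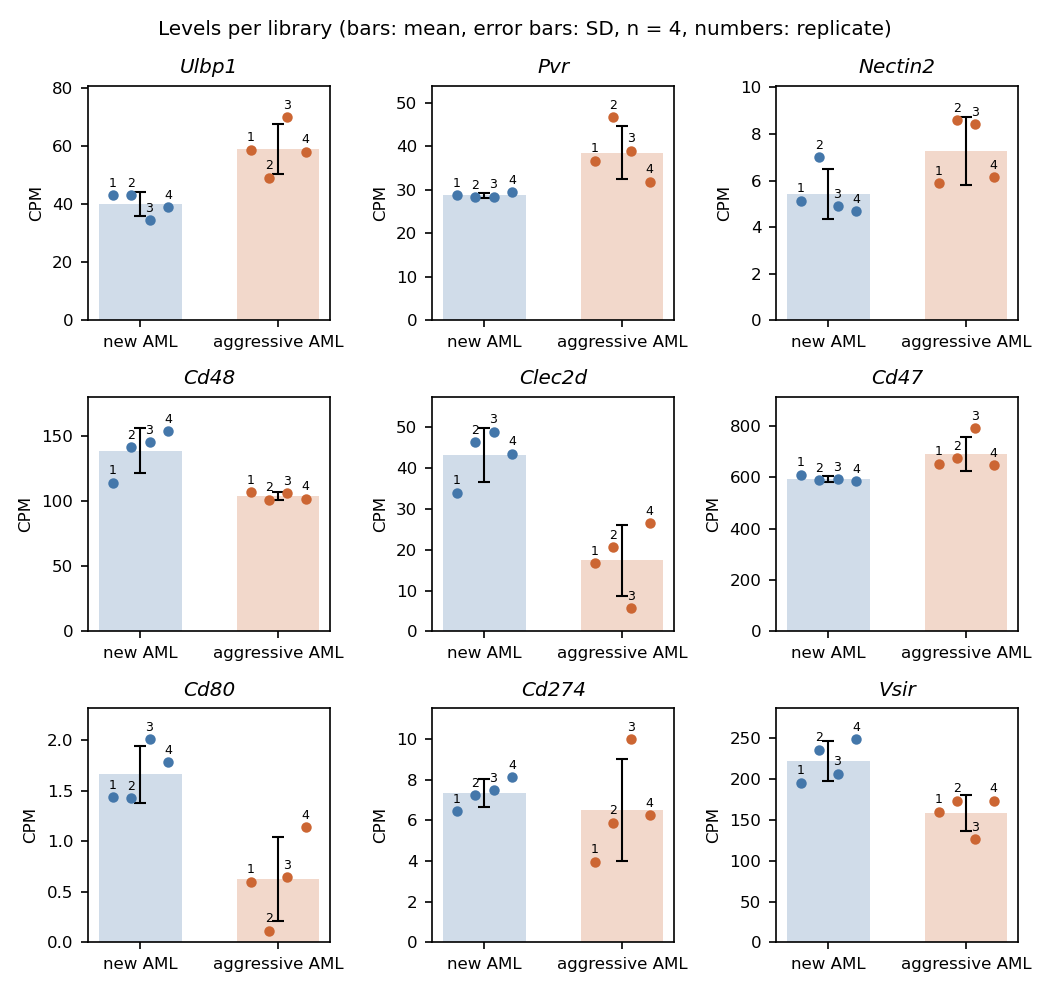
CPM of each gene on a linear axis from 0, with 1 point per library (numbered by replicate), bars for the mean and error bars for the SD of the 4 libraries of new AML (blue) and aggressive AML (orange). Ulbp1, Pvr and Cd47 lie above new AML in every aggressive library, Cd48, Clec2d, Cd80 and Vsir lie below it in every aggressive library, and the groups overlap for Nectin2 and Cd274.

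Levels of different genes were set side by side only per length, as CPM divided by the length of the exons in kilobases (RPKM). That length covers all annotated exons of a gene, not only those of the transcripts expressed. In new AML the order was Cd48 (117 RPKM), Cd47 (94.8), Vsir (44.2), Clec2d (35.6), Ulbp1 (5.94), Pvr (4.70), Cd274 (2.02), Nectin2 (1.56) and Cd80 (0.449). In aggressive AML the order was Cd47 (110 RPKM), Cd48 (87.5), Vsir (31.6), Clec2d (14.3), Ulbp1 (8.77), Pvr (6.30), Nectin2 (2.08), Cd274 (1.80) and Cd80 (0.169). Cd47 and Cd48 thus exchanged places. Cd48 ranged from 95.9 to 129 RPKM and Cd47 from 93.3 to 97.4 RPKM in new AML, where they overlapped, while in aggressive AML Cd48 reached 90.1 RPKM at most and Cd47 started at 103 RPKM. Vsir and Clec2d overlapped in new AML (39.0 to 49.5 against 28.0 to 40.3 RPKM) and did not in aggressive AML (25.2 to 34.6 against 4.70 to 21.9 RPKM). Cd274 and Nectin2 overlapped in both groups, so their order is not beyond their spread.

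**Figure D2:**
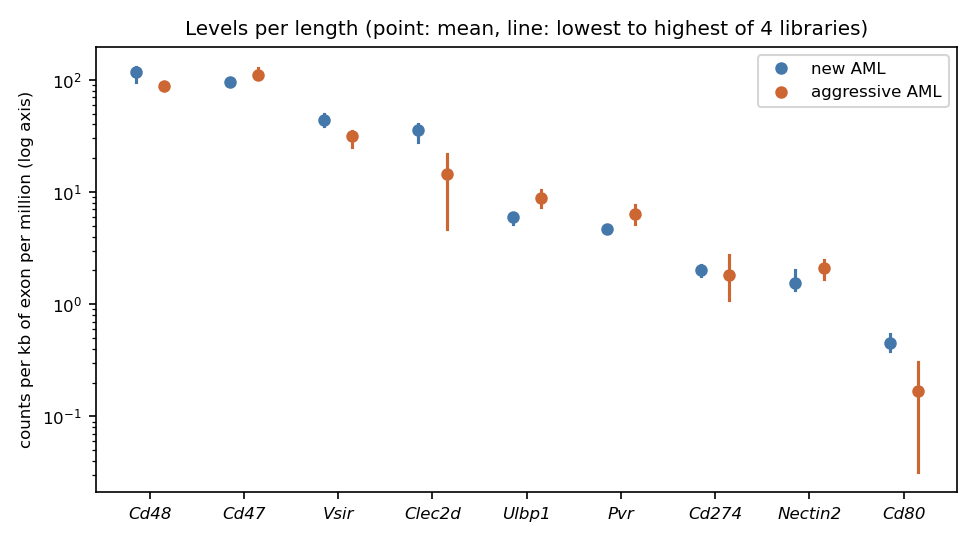
Mean RPKM of each gene on a log axis in new AML (blue) and aggressive AML (orange), with lines from the lowest to the highest of 4 libraries and genes ordered by their level in new AML. The levels span from 117 RPKM for Cd48 to 0.449 RPKM for Cd80 in new AML, and Clec2d shows the longest drop among the abundant genes.

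The NKG2D ligand Ulbp1 encodes MULT1, which engages the activating receptor on NK cells and some T cells. Its gene lies on chromosome 10 (7444873 to 7473641, minus strand, GRCm38.p6). Ulbp1 stood at 43.1, 43.2, 34.6 and 39.0 CPM in new AML replicates 1 to 4 and at 58.8, 49.1, 69.9 and 58.0 CPM in aggressive AML replicates 1 to 4. The lowest aggressive library lay above the highest new library, and aggressive replicate 3 was the highest of all. Ulbp1 rose by 0.56 on the log2 scale (SE 0.12, adjusted p = 0.0035 by edgeR). In bulk RNA such as this, fewer cells of a type and less RNA per cell cannot be told apart, and the same holds for every gene that follows.

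The other NKG2D ligands in the table were not called. Raet1e, a member of the RAE-1 family, measured 13.7 to 18.9 CPM in new AML and 15.2 to 23.5 CPM in aggressive AML (log2 fold change 0.25, 95% confidence interval -0.09 to 0.59), and Raet1d, another member, had a log2 fold change of 0.31 (-0.51 to 1.13). H60b, which encodes a further NKG2D ligand, ranged from 0.719 to 1.56 CPM and from 0.482 to 4.80 CPM, with its highest value in aggressive replicate 3 (log2 fold change 0.90, -0.19 to 2.00, and 0.27 without that library). The Raet1 genes resemble each other closely in sequence, and reads may have been split between them. Per length, Raet1e (7.24 RPKM in new AML) lay near Ulbp1 (5.94 RPKM), and their ranges overlapped slightly (6.35 to 8.76 against 5.14 to 6.42 RPKM). The receptor gene itself, Klrk1, was at 3.90 to 7.92 CPM in new AML and 2.47 to 5.83 CPM in aggressive AML and was not called (adjusted p = 0.44 by edgeR).

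Pvr and Nectin2 lie near each other on chromosome 7, with Bcl3, Gm19345 and Ceacam16 between them. Both encode nectin-family adhesion molecules that bind the activating receptor CD226 and the inhibitory receptor TIGIT. Pvr was at 28.8, 28.3, 28.4 and 29.4 CPM in new AML and at 36.8, 46.7, 39.0 and 31.9 CPM in aggressive AML. The new libraries were close together, the aggressive libraries all lay above them, and aggressive replicate 2 was the highest. The log2 fold change was 0.42 (SE 0.12, adjusted p = 0.021 by edgeR). The call was lost without replicate 2 of either group. Without new AML replicate 2 the adjusted p was 0.060 and the log2 fold change stayed at 0.42. That fit called 1534 of all genes, against 2296 with all libraries. Without aggressive AML replicate 2 the adjusted p was 0.079 and the log2 fold change fell to 0.32.

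Nectin2 measured 5.13, 7.02, 4.91 and 4.68 CPM in new AML and 5.90, 8.60, 8.42 and 6.15 CPM in aggressive AML. Its groups overlapped through new AML replicate 2, which lay above aggressive replicates 1 and 4. The log2 fold change of 0.42 equalled that of Pvr to 2 decimals, but its interval ran from -0.04 to 0.88 and the gene was not called (adjusted p = 0.20). The related gene Cadm1, whose product binds the receptor CRTAM on activated NK and T cells, fell by 1.01 on the log2 scale (SE 0.32, adjusted p = 0.038), from 4.13 to 6.66 CPM down to 1.20 to 4.10 CPM. Leaving out 1 library at a time kept the call for Cadm1 in 2 of 8 fits, those without new AML replicate 3 or aggressive AML replicate 4, with a highest adjusted p of 0.12 without new AML replicate 2.

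Cd48 encodes a GPI-anchored protein of the SLAM family, the ligand of the NK receptor CD244. It was at 114, 142, 145 and 154 CPM in new AML and at 107, 101, 106 and 102 CPM in aggressive AML. All aggressive libraries lay below all new libraries and within a narrow band, while new AML replicate 1 came nearest to them. Cd48 fell by 0.41 on the log2 scale (SE 0.09, adjusted p = 0.0051 by edgeR). Cd48 sits within a cluster of SLAM-family genes on chromosome 1 (171681245 to 171705258, plus strand). Its 3 nearest tested genes on each side, Cd244, Ly9 and Slamf7 before it and Cd84, Slamf6 and Vangl2 after it, were not called. Ly9, which encodes a SLAM receptor that binds itself, had a log2 fold change of -0.10 (-0.28 to 0.08) and Cd84, another such receptor, had 0.27 (0.04 to 0.51, adjusted p = 0.10). The receptor gene Cd244 was at 95.8 to 118 CPM in new AML and 81.0 to 122 CPM in aggressive AML (log2 fold change -0.08, -0.32 to 0.16).

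Clec2d encodes Clr-b, a lectin-like protein on most blood cells that is the ligand of the inhibitory NK receptor NKR-P1B, itself encoded by Klrb1b. Both genes lie in the NK gene complex on chromosome 6, Clec2d at 129180615 to 129186535 on the plus strand and Klrb1b at 128813706 to 128826315 on the minus strand. The sequences before their annotated starts are shown because the ligand and its receptor moved in opposite directions, and that of Ulbp1 is shown as the NKG2D ligand that rose. Each run gives the 250 bases before a transcript start, 5′ to 3′ on the strand of the gene, from RefSeq on GRCm38.p6, and that of Ulbp1 lies partly within the annotated span of the gene. Capitals mark a match to the interferon-stimulated response element, searched on both strands as GAAA, any 2 bases and GAAA.
Clec2d (chr6:129180365-129180614, plus strand): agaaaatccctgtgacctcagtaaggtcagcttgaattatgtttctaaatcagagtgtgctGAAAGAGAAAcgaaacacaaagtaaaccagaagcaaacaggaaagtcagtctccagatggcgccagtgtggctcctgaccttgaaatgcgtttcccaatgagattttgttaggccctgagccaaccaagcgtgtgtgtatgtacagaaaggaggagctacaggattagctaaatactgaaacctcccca
Klrb1b (chr6:128826316-128826565, minus strand): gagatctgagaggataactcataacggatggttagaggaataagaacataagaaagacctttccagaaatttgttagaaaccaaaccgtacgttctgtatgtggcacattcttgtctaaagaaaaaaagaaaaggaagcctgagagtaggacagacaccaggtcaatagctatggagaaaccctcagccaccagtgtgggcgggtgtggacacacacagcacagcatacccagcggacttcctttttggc
Ulbp1 (chr10:7473478-7473727, minus strand): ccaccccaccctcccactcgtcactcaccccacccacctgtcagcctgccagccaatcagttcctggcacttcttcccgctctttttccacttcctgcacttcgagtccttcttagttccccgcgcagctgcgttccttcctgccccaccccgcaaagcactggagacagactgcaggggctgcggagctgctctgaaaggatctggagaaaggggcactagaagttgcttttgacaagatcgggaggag

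Of the 9 genes, 8 had a promoter sequence in the RefSeq set, and Pvr had none. The response element was found in 1 of those 8, Clec2d, where the match starts 189 bases before the transcript start. It was found in 2.98% of 32851 promoters of the same length. The STAT site, searched on both strands as TTC, any 3 bases and GAA, was found in 0 of the 8 and in 7.02% of all promoters. These are matches of letters and say nothing on whether a factor is bound.

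Clec2d was at 34.0, 46.4, 48.9 and 43.5 CPM in new AML and at 16.6, 20.6, 5.70 and 26.5 CPM in aggressive AML. The groups did not overlap, and aggressive replicate 3 was far below the other 3 aggressive libraries. The log2 fold change was -1.30 (SE 0.28, adjusted p = 0.0043 by edgeR). Without aggressive replicate 3 it was -1.02, and the gene was still called. The interferon response list, of which 16 of 17 tested genes were called lower beside 10.2% of all tested genes, moved with the group. Its score, the mean log2(CPM + 1), was 4.80, 4.64, 5.74 and 4.97 in new AML and 3.82, 3.94, 3.89 and 4.09 in aggressive AML. New AML replicate 3 had the highest score and the highest Clec2d level, whereas aggressive replicate 3, with the lowest Clec2d level, had a score between those of the other aggressive libraries. The part of the interferon list and of the blood cell markers in the Clec2d result was not tested.

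Klrb1b, the receptor gene, had 2, 0, 0 and 0 counts in new AML and 78, 80, 45 and 73 counts in aggressive AML. Every aggressive library held many more counts than all new libraries together. Summed over the libraries of a group, 276 counts in aggressive AML stood against 2 in new AML, a ratio of 149 after scaling (exact 95% interval 40.8 to 1235, for counting error only), and the gene was called in edgeR (adjusted p = 5.0e-07). At 2.62 to 4.23 RPKM in aggressive AML it remained below Clec2d in the same libraries (4.70 to 21.9 RPKM). Genes of the Klrb1 family resemble each other, so reads of a close copy cannot be told apart here. Of the NK cell marker list, 1 of 8 genes had a row, Klrk1, and its log2 fold change was -0.37 (-1.03 to 0.29).

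Clec2i and Klrb1f encode a further ligand and its receptor in the same gene complex. Clec2i was at 62.2 to 94.4 CPM in new AML and 64.8 to 127 CPM in aggressive AML (log2 fold change 0.23, -0.15 to 0.61). Its sign turned to -0.000095 without aggressive replicate 3, which held the highest value. Klrb1f fell by 0.53 on the log2 scale (SE 0.16, adjusted p = 0.034), from 14.7 to 22.5 CPM down to 10.02 to 13.9 CPM, and remained called in 4 of 8 fits with 1 library removed, being lost without replicate 2 or 4 of new AML or replicate 1 or 2 of aggressive AML, with a highest adjusted p of 0.12 without new AML replicate 4.

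Within 500 kb of the Clec2d start, 16 genes were tested, of which 2 rose and 6 fell, beside 18.4% called among all tested genes. These counts hold Clec2d itself and the Klrb1b and Klrb1f already described. Klrb1b and Clec12a, which encodes an inhibitory myeloid lectin, were the genes that rose, Clec12a by 0.62 on the log2 scale (SE 0.08, 381 to 481 CPM against 637 to 704 CPM). Clec7a, which encodes the fungal sensor dectin-1, fell by 1.52 (SE 0.18, 53.9 to 110 CPM against 23.9 to 34.7 CPM) and the unnamed gene 4922502D21Rik fell by 1.12 (SE 0.11). Cd69, an activation marker near Clec2d, had values of 87.7 to 151 CPM in new AML and 32.5 to 95.04 CPM in aggressive AML. It was lowest in aggressive replicate 3 and was not called (adjusted p = 0.081 by edgeR, and 0.046 without aggressive replicate 4). Clec12a, Clec7a, 4922502D21Rik and Cd69 were picked out after their values were seen.

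**Figure D3:**
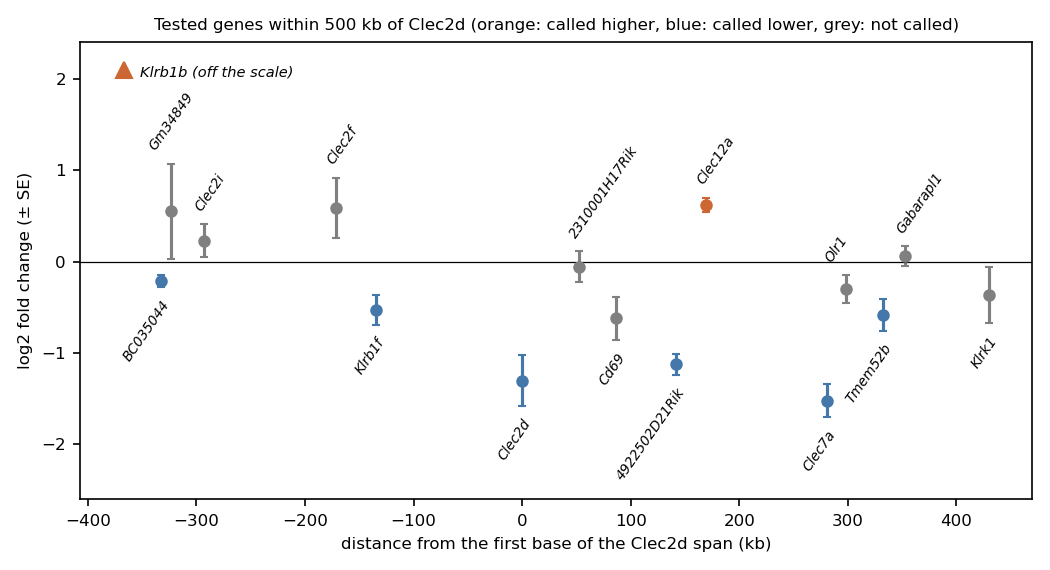
Log2 fold change, aggressive over new AML, with its SE, for the 16 tested genes within 500 kb of Clec2d, against the distance of each gene span from that of Clec2d in kb. Orange marks the 2 genes called higher, blue the 6 called lower and grey those not called, and Klrb1b is drawn as a triangle off the scale because its new AML level rests on 2 counts.

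H2-T23 encodes Qa-1b, a nonclassical MHC class I molecule that is read by the inhibitory NK receptor of CD94 and NKG2A. It fell by 0.51 on the log2 scale (SE 0.08, adjusted p = 0.00064), from 198 to 254 CPM in new AML down to 148 to 158 CPM in aggressive AML, without overlap. H2-T genes share sequence, and the count of H2-T23 may hold reads of close copies. Per length it stood at 75.6 RPKM in new AML and 53.2 RPKM in aggressive AML, far above Ulbp1 in either group.

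Over all 24 other NK cell receptor ligands that were listed, 14 were tested, of which 1 rose, 2 fell (H2-T23 and Cadm1) and 11 were not called. Their median log2 fold change was 0.06, and 18.4% of all tested genes were called. The gene that rose was Icam2, which encodes a ligand of the integrin LFA-1, by 0.26 (SE 0.08, adjusted p = 0.030), from 94.5 to 109 CPM up to 111 to 128 CPM. With 1 library removed at a time it was called in 2 of 8 fits, those without replicate 3 of either group, with a highest adjusted p of 0.11 without new AML replicate 2. Icam1, which encodes another LFA-1 ligand, was at 26.2 to 36.4 CPM against 17.2 to 26.6 CPM (log2 fold change -0.43, adjusted p = 0.065, and 0.039 without aggressive replicate 2).

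Cd47 encodes the signal that restrains phagocytes through the receptor SIRPA. It was at 611, 590, 593 and 586 CPM in new AML and at 654, 676, 791 and 649 CPM in aggressive AML. The groups did not overlap, and aggressive replicate 3 was the highest. The log2 fold change of 0.22 (95% confidence interval 0.06 to 0.38) did not pass the threshold (adjusted p = 0.054 by edgeR), although it was called in 3 of 18 alternative analyses, DESeq2 (adjusted p = 0.028) and the fit without aggressive replicate 4 (0.042) among them. Sirpa was at 177 to 254 CPM in new AML and 223 to 292 CPM in aggressive AML and was not called (log2 fold change 0.20, -0.04 to 0.43).

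Cd24a, whose product restrains phagocytes through lectin receptors, rose by 0.41 on the log2 scale (SE 0.07, adjusted p = 0.00089). Its values were 440, 468, 506 and 488 CPM in new AML and 598, 621, 676 and 642 CPM in aggressive AML, without overlap. Per length Cd24a (184 and 246 RPKM) exceeded Cd47 (94.8 and 110 RPKM) in both groups.

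Cd80 encodes a B7 molecule that binds CD28 and CTLA-4 on T cells, and it was the least abundant of the 9 genes. Counts were 14, 12, 18 and 16 in new AML and 5, 1, 5 and 10 in aggressive AML, which is 1.44, 1.43, 2.01 and 1.78 CPM against 0.602, 0.118, 0.648 and 1.14 CPM. The groups did not overlap, and aggressive replicate 2 was the lowest. Its log2 fold change was -1.38 (SE 0.46) at an adjusted p of 0.0495 by edgeR. That call is at the edge of the threshold: it was made in 4 of 17 alternatives and in 1 of the 8 fits without 1 library, that without aggressive replicate 4 (adjusted p = 0.022), and the fold change was -1.04 without aggressive replicate 2. The receptor gene Cd28 was at 58.0 to 86.5 CPM against 45.5 to 86.3 CPM and was not called.

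Of the 6 called genes among the 9, Cd80 had the largest fold change, ahead of Clec2d, an order that turned without aggressive replicate 2 (-1.04 against -1.39) and in limma on log2(CPM + 1) (-0.74 against -1.43). For Cd80, 3 genes were most like it over the 8 libraries by the root mean square difference of centred log2(CPM + 1). They were Oas1b, an interferon-induced gene of the oligoadenylate synthetase family (0.169), Ppm1k, a mitochondrial phosphatase gene (0.171), and Lipe, which encodes hormone-sensitive lipase (0.171). The median difference over all tested genes was 0.482. Among the other genes described here, Cd48 (0.302) and Vsir (0.337) were nearest to Cd80, and Ulbp1 (0.697) was farthest. Oas1b fell by 0.92 and Lipe by 0.56 on the log2 scale, while Ppm1k had a log2 fold change of -0.52 and was not called (adjusted p = 0.10, and 0.023 without aggressive replicate 4). The likeness included the difference between the groups, so lower levels of these 3 genes in aggressive AML follow from how they were picked. Oas1b was called in 2 of 8 fits with 1 library removed, those without new replicate 1 or aggressive replicate 4, and its log2 fold change was -0.77 without new replicate 3. The profiles share libraries and depth. Adding 1 CPM shrinks the differences of a gene as low as Cd80 (-0.74 in limma on that scale, -1.38 in edgeR). The likeness is a description on that scale only.

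Cd274 encodes PD-L1, the ligand of the inhibitory T cell receptor PD-1. It measured 6.47, 7.25, 7.47 and 8.14 CPM in new AML and 3.98, 5.89, 9.98 and 6.26 CPM in aggressive AML. The aggressive libraries lay on both sides of the new ones, with replicate 1 the lowest and replicate 3 the highest of all 8. The log2 fold change was -0.17 with an interval from -0.69 to 0.35 (adjusted p = 0.67 by edgeR), which leaves changes of either sign within its bounds, and it was 0.0037 without aggressive replicate 1. Cd274 shares its locus on chromosome 19 with Plgrkt, and reads of overlapping genes cannot be told apart, since the strand setting of the counting was not stated.

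Vsir encodes VISTA, an inhibitory B7-related molecule of myeloid and T cells. It was at 196, 236, 206 and 248 CPM in new AML and at 160, 173, 126 and 173 CPM in aggressive AML. All aggressive libraries were below all new ones, and aggressive replicate 3 was the lowest. Vsir fell by 0.48 on the log2 scale (SE 0.11, adjusted p = 0.0050 by edgeR). The gene overlaps the span of Cdh23 on chromosome 10 (60346851 to 60430294, plus strand), whose own row had a log2 fold change of 0.32 and was not called. Of the 3 nearest tested genes on each side, 3 fell, beside 10.2% called lower among all tested genes. Psap, the lysosomal prosaposin gene, fell by 0.81, Slc29a3, a nucleoside transporter gene, by 0.58, and Gm26947 by 0.45. Selplg, which encodes a VISTA binding partner better known as a selectin ligand, was at 508 to 542 CPM against 385 to 507 CPM (log2 fold change -0.23, adjusted p = 0.061, and 0.015 without aggressive replicate 3).

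Of 16 other checkpoint and costimulatory genes that were listed, 6 were tested: 1 rose (Cd24a), 2 fell and 3 were not called. Their median log2 fold change was -0.10, beside 18.4% called among all tested genes. Lgals9, which encodes the TIM-3 ligand galectin-9, fell by 0.25 (SE 0.08, adjusted p = 0.034), and Ceacam1, which encodes an adhesion molecule that inhibits NK and T cells, fell by 0.37 (SE 0.12, adjusted p = 0.042). Calls were made in 3 and 4, respectively, of 8 fits with 1 library removed, Lgals9 in those without new replicate 2 or aggressive replicate 1 or 3 and Ceacam1 in those without new replicate 1 or 3 or aggressive replicate 2 or 4. The highest adjusted p was 0.11 for Lgals9 without aggressive replicate 2 and 0.13 for Ceacam1 without new AML replicate 2. Lgals3, Tnfrsf14 and Icosl, which encode galectin-3, the BTLA ligand HVEM and the ICOS ligand, were not called, with log2 fold changes of 0.17, -0.04 and -0.16.

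Of 17 receptors of these ligands, 8 were tested, of which 1 rose (Klrb1b), 1 fell (Klrb1f) and 6 were not called. The share called among all tested genes was 18.4%. Of 10 genes whose products set surface levels, 6 were tested, and 0 were called by edgeR, 0 by DESeq2 and 0 by limma. Adam10 and Adam17, which encode proteases that shed NK ligands from the surface, had log2 fold changes of 0.05 (-0.11 to 0.21) and -0.07 (-0.24 to 0.10). Cmtm6, which encodes a protein that holds PD-L1 at the surface, had -0.20 (-0.39 to -0.01, unadjusted p = 0.044 by edgeR, adjusted p = 0.14) and was the 1 of 6 at an unadjusted p under 0.05. Without aggressive replicate 3 Cmtm6 was called (adjusted p = 0.030).

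**Figure D4:**
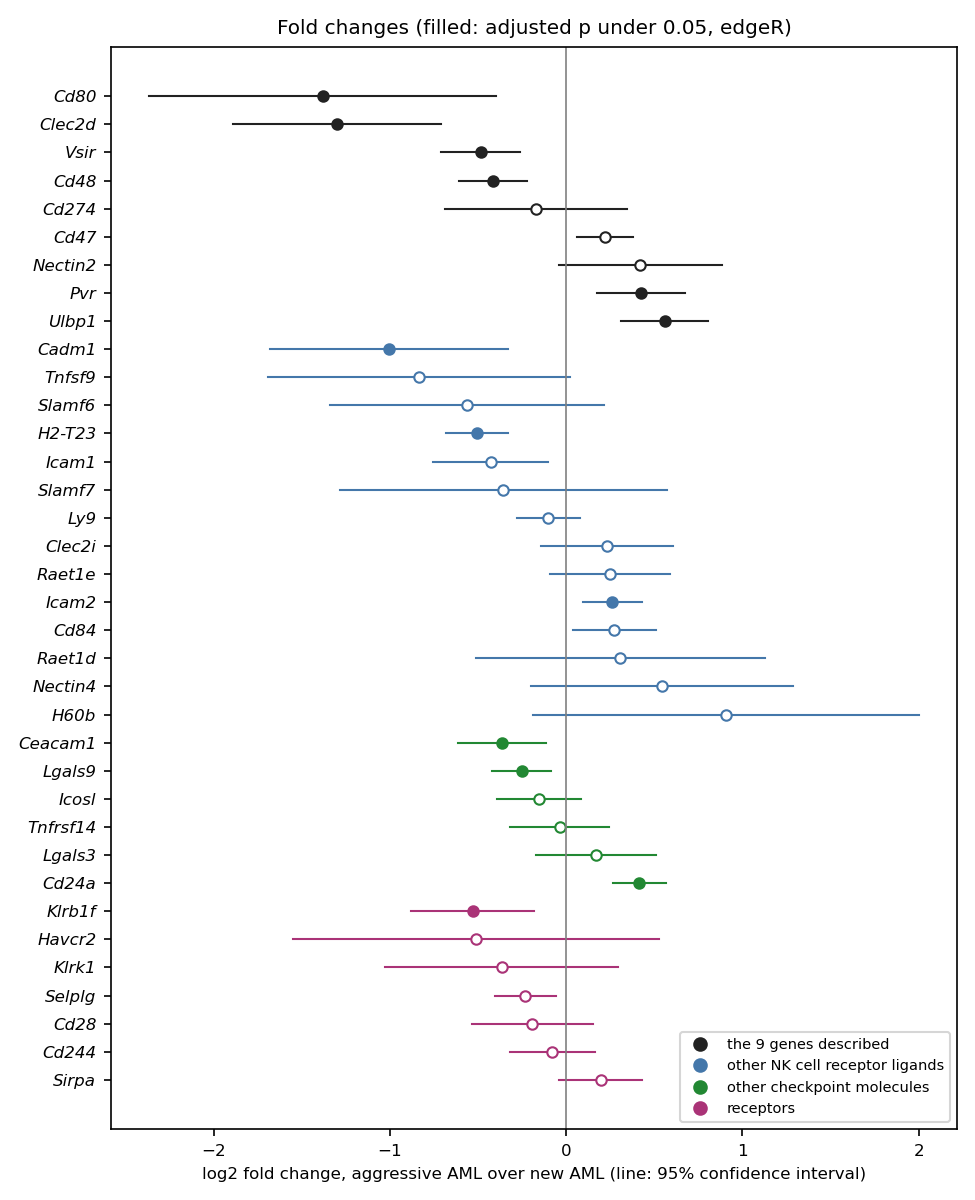
Log2 fold change, aggressive over new AML, with its 95% confidence interval for the tested genes of 4 lists, filled where the adjusted p was under 0.05 by edgeR. Klrb1b is left out because its new AML level rests on 2 counts. Ulbp1 and Pvr lie to the right of 0 and Cd80, Clec2d, Vsir and Cd48 to the left.

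By position, the 3 nearest tested genes on each side of the 9 genes made up 51 distinct neighbours, of which 3 rose and 7 fell. That is 19.6% called, beside 18.4% of all tested genes. Pvr and Nectin2 share neighbours, among them Bcl3, an NF-kB regulator gene that fell by 0.82, and Ceacam16, which rose by 1.26. Jak2, a kinase gene near Cd274, fell by 0.43.

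Single libraries took the extremes of several genes. Aggressive replicate 3 was the highest of its group for Ulbp1, Cd47 and Cd274 and the lowest for Clec2d and Vsir. Aggressive replicate 2 was the highest for Pvr and Nectin2 and the lowest for Ulbp1, Cd48 and Cd80. In new AML, replicate 1 was the lowest for Cd48, Clec2d, Cd274 and Vsir, and replicate 4 was the highest for Pvr, Cd48, Cd274 and Vsir. When replicate 3 of both groups was left out, the count of called genes was 5 of 9, with 2 higher and 3 lower, and the gene no longer called was Cd80.

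**Figure D5:**
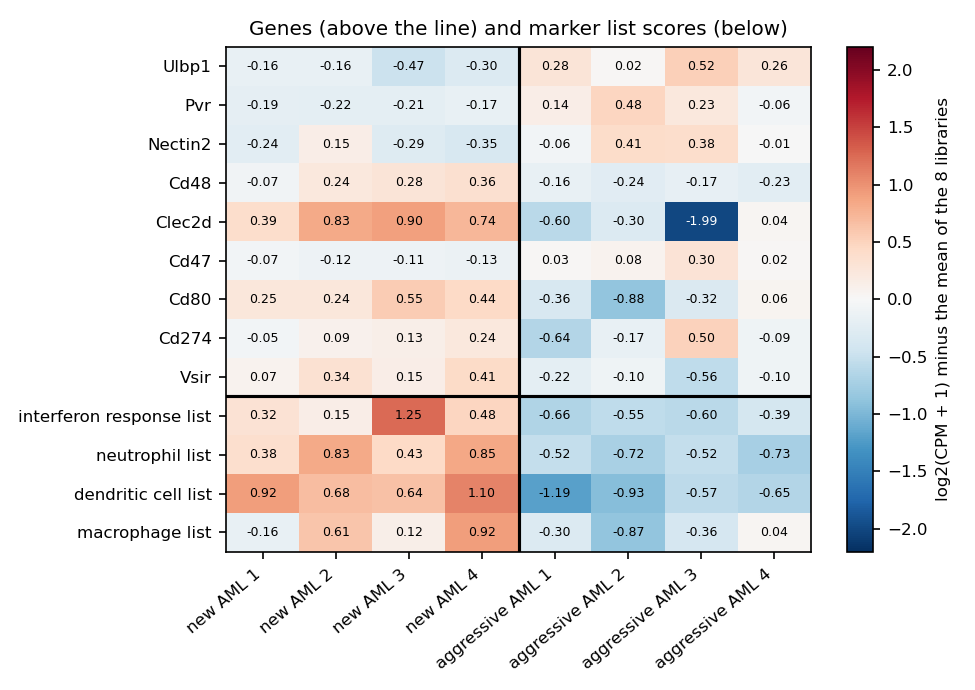
Log2(CPM + 1) of each gene, and the mean log2(CPM + 1) of 4 marker lists, minus the mean of the 8 libraries, with red above and blue below that mean. Clec2d in aggressive AML replicate 3 is the lowest cell, new AML replicate 3 has the highest interferon score, and the neutrophil and dendritic cell lists are above their means in all new libraries and below them in all aggressive libraries.

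The lists of blood cell markers differed between groups to the extent given above. Their part in the lower levels of Cd48, Clec2d, Cd80 and Vsir was not tested. Whether their reads came from the GFP+ leukemia cells themselves or from other cells was not tested either. The macrophage marker Adgre1 was at 59.9 to 102 CPM in new AML and 36.9 to 55.5 CPM in aggressive AML. The dendritic cell marker Itgax was at 33.4 to 49.7 against 9.28 to 12.8 CPM. Rows of the dendritic cell markers Zbtb46, Xcr1 and Clec9a are not analysed here.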

How the data were processed

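Per the methods of the study, the authors purified polyadenylated RNA, sequenced both ends, aligned the reads to mm10 with HISAT2, obtained read counts for genes with Rsubread and filtered out weakly expressed genes. Although its name says CPM, the deposited table holds whole numbers with different totals per library (7805544 to 9697777), which were used as raw counts. The gene annotation and strand setting are not given in the sources used here, so overlapping genes are uncertain.

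Rows had to reach 1 CPM in 4 or more of the 8 libraries (329 of 12823 were left out). The quasi-likelihood test of edgeR 4.0.16 (R 4.3.3) with TMM scaling and the group as the only term was fitted on all kept genes, two-sided, with Benjamini-Hochberg adjustment over all of them and a threshold of 0.05. CPM values carry the TMM factors (0.986 to 1.01), SE were derived from the F statistic, and intervals on counts cover counting error only. DESeq2 1.42.0, limma 3.58.1, other scalings and filters, a replicate block and fits without each library were alternatives. Exon lengths came from GENCODE on GRCm38 (mm10) and positions and promoters from RefSeq GRCm38.p6, to which 97.4% of gene names matched.

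Groups follow the sample labels. The genes and all lists were chosen with earlier results of these data known. Named from the other lists were called genes and up to 3 of the most abundant uncalled ones per list. Further genes (Raet1d, Raet1e, H60b, Klrk1, Icam1, Cd28, neighbours and single markers) were chosen after their values were seen.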

Additional observations from a re-analysis of the deposited data

How the results depend on the processing

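Over the 9 genes, the count of called genes was 6 and lay between 4 and 7 in all alternatives, 4 to 7 in fits that each left out 1 library, and Ulbp1, Cd48, Clec2d and Vsir were called in all 18. The replicate numbers did not pair the samples (correlations of same-numbered libraries 0.0967, -0.0399, -0.0654 and 0.204, with 2 of 4 matching their own number best), and with the replicate block 5 of the 9 genes were called, Cd80 being lost, and 2367 of all genes instead of 2296. Counts of called genes moved between 1 and 3 for the other NK ligands (3 with all libraries), between 1 and 2 for the other checkpoint genes (3) and between 1 and 4 for receptors and regulators (2) when 1 library was left out. The latter count was 4 without replicate 3 of both groups, an alternative chosen after seeing the data. The count over all genes was 1534 to 2381 in fits without 1 library. The sign turned only in genes that were not called: Cd274 (0.0037) and Cd244 (0.024) without aggressive replicate 1, Clec2i (-0.000095) and Lgals3 (-0.018) without aggressive replicate 3, Clec2i (-0.057) and Tnfrsf14 (0.0095) without replicate 3 of both groups, and Tnfrsf14 without new replicate 2 (0.015), aggressive replicate 1 (0.041) or aggressive replicate 3 (0.0095). Among all alternatives the values farthest the other way were -0.44 for Cd274 and -0.22 for Cd244, 0.37 for Clec2i, 0.30 for Lgals3 and -0.20 for Tnfrsf14. The cause of these changes was not tested. Cd80 could not be fitted at a minimum of 5 CPM. Depth limits Cd80, whose aggressive libraries held 1 to 10 counts.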
